A study of Mus musculus with 7 samples.

Results

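Cdh16 and a group of genes for secreted plasma proteins were followed across 7 subcutaneous (s/c) mouse tumors of pancreatic ductal adenocarcinoma (PDA). The group was taken as 10 listed genes, Cdh16, Alb, Ttr, Fga, Fgb, Fgg, Serpina1a, Apoa1, Apob and Trf, of the 22629 rows of the count table. The list was chosen by its measured difference between the tumors compared here, so that difference is given as a description of the genes, without a test. A row was found for 8 of the 10 genes, and all 8 passed the filter on low counts, while Fgb and Fgg were not analysed here. All tumors grew from cells of 1242, a cell line from a KPC mouse, in which Pdx1-Cre switches on tumor-forming alleles in the pancreas. The cells carried Cas9 and sgScramble, a scrambled control guide. Tumors 1, 4 and 5 were formed with these control cells (sgScramble, n = 3), and tumors 15, 16, 18 and 2 with sgScramble cells that also carried icOVA, an ovalbumin kept in the cytoplasm and switched on by doxycycline (icOVA, n = 4). Hosts were young adult C57BL/6 mice, and tumors were collected 2 weeks after inoculation. The icOVA cells were sorted and grown from a single cell, and the labels and the paper's text state neither whether the sgScramble cells of these tumors were a clone or carried the vector, nor whether they met doxycycline. By the paper's methods, mice with ovalbumin-inducible tumors were fed doxycycline, and these tumors were started with more cells than its usual s/c tumors. A difference between the groups may therefore be one of ovalbumin, doxycycline, inoculated cell number or cell population, and these cannot be told apart. The labels name each tumor as its own sample but not its mouse, so that p-values measure the spread between these samples.

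Hepatocytes secrete most proteins of the blood plasma, among them albumin, transthyretin, fibrinogen, antitrypsin, the apolipoproteins and transferrin, and their genes are switched on together by factors such as HNF4 and C/EBP. The liver and the pancreas both arise from foregut endoderm and share several of these factors. Cdh16 encodes the kidney-specific cadherin, an adhesion protein of tubule epithelium that is also present in the thyroid.

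The total count was 30904855 to 37510591 per tumor, and the values scaled to library size (CPM, with TMM factors) used here rest on these totals. OVA had 85 to 151 counts in sgScramble tumors and 3413 to 10750 in icOVA tumors, in the direction of the labels. Summed over 12 genes of epithelial cancer cells, expression was 5028 to 5382 CPM in sgScramble tumors and 5171 to 5557 CPM in icOVA tumors 15, 16 and 2, but 3190 CPM in icOVA tumor 18. Tumor 18 also had the highest Col1a1, a collagen gene of fibroblasts, at 11678 CPM. As bulk RNA was sequenced, fewer cells that express a gene and less of its RNA in each cell cannot be told apart in any value below.

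Sequence upstream of these genes is shown first for the 3 with a window in the RefSeq promoter table and a match to the C/EBP motif. Of the 8 measured genes, 5 (Alb, Fga, Serpina1a, Apoa1 and Apob) have an entry there. Alb lies on chromosome 5 of GRCm38 (90460897 to 90476602, plus strand), Fga on chromosome 3 (83026076 to 83033627, plus strand) and Apob on chromosome 12 (7977648 to 8016835, plus strand) in the GENCODE M21 annotation. The stretches below are from RefSeq on GRCm38.p6, at chr5:90460720-90460869, chr3:83025926-83026075 and chr12:7977498-7977647, all on the plus strand and upstream of the annotated gene. Each reads 5′ to 3′ on the strand of its gene, with matches to the C/EBP motif (TTGCNNAA) and, in Apob, the TATA box (TATAAA) in capitals.
Alb: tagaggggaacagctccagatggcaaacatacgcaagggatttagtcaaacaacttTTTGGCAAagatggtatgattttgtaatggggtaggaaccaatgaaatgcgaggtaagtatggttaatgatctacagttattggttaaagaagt
Fga: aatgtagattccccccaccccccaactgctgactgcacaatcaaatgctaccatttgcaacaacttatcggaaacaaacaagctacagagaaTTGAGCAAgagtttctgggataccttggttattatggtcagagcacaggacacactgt
Apob: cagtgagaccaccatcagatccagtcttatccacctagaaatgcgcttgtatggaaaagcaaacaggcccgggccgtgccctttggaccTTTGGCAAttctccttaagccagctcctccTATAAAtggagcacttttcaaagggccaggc

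The C/EBP match began 94 bases before the RefSeq start of Alb, 135 before that of Fga and 90 before that of Apob, and lay on the opposite strand in all 3. On both strands of the 250 bases before the start the motif was found in 3 of the 5 genes, and in 9.56% of 32851 promoters in the table. Within 100 bases of the start it was found in 2 of the 5, Alb and Apob, and in 3.43% of promoters. The HNF4 letters (CAAAGTCCA or CAAAGTTCA) were found in 0 of the 5 against 0.715% of promoters over 250 bases, and the TATA box in 1, Apob, against 12.4%. No match overlapped another. These are matches of letters, with no measurement of binding.

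Alb encodes serum albumin, the main protein of plasma, and was among the genes furthest below the control in the icOVA tumors. It had 135, 35 and 107 counts in tumors 1, 4 and 5 (sgScramble), and 6, 2, 1 and 12 counts in tumors 15, 16, 18 and 2 (icOVA). Every icOVA tumor was below every sgScramble tumor, and tumor 4, the lowest control at 35 counts, still held more Alb than icOVA tumor 2, the highest of its group at 12. Mean Alb was 2.79 ± 1.51 CPM (SD, n = 3) in sgScramble tumors and 0.155 ± 0.156 CPM (SD, n = 4) in icOVA tumors, which was 5.57% of the control mean. Its log2 fold change was -4.16 (SE 0.72), or 17.9-fold lower.

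Fga, which encodes the alpha chain of fibrinogen, the clotting protein cleaved by thrombin, had the lowest log2 fold change of the group. Its counts were 85, 11 and 47 in tumors 1, 4 and 5 (sgScramble) and 1, 2, 0 and 4 in tumors 15, 16, 18 and 2 (icOVA). Fga was thus close to the limit of detection in all icOVA tumors, and its 0 counts in tumor 18 allow up to 3 counts, or 0.0863 CPM, with counting error alone considered. Mean Fga was 1.43 ± 1.06 CPM (SD, n = 3) against 0.0522 ± 0.0535 CPM (SD, n = 4), and the fitted difference was -4.72 ± 0.87 (SE) on the log2 scale, which ranked 3 among the lowest of 17489 genes tested.

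Serpina1a, on chromosome 12 (103853589 to 103863562, minus strand), encodes an alpha-1-antitrypsin, the plasma inhibitor of neutrophil elastase. It had 117, 25 and 90 counts in tumors 1, 4 and 5 (sgScramble) and 2, 3, 0 and 16 counts in tumors 15, 16, 18 and 2 (icOVA). The groups did not overlap, although the highest icOVA tumor came near the lowest control. Its log2 fold change was -3.89 (SE 0.93). Serpina1a lies among near-identical copies, so reads may have been split between them and its value is uncertain. Of those copies, Serpina1c had 79, 13 and 54 counts in sgScramble tumors against 0, 0, 0 and 7 in icOVA tumors, and Serpina1b, named here after its values were seen, had 133, 38 and 92 against 24, 26, 29 and 42. The other copies with a row, Serpina1d (6, 6 and 2 against 17, 0, 3 and 5) and Serpina1e (1, 2 and 3 against 0, 1, 16 and 15), had few counts and higher mean CPM in icOVA tumors.

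Ttr encodes transthyretin, the plasma carrier of thyroxine and of retinol-binding protein, and was far better covered than the preceding genes. Ttr counts were 2549, 1315 and 3149 in tumors 1, 4 and 5 (sgScramble) and 272, 849, 36 and 632 in tumors 15, 16, 18 and 2 (icOVA). The groups did not overlap for Ttr, with 40.0 CPM in the lowest sgScramble tumor and 24.3 CPM in the highest icOVA tumor. Tumor 18, at 1.03 CPM, stood well below the other icOVA tumors, which held 7.35 to 24.3 CPM. Mean Ttr was 71.3 ± 30.4 CPM (SD, n = 3) against 13.1 ± 10.8 CPM (SD, n = 4), and the fitted difference was -2.45 ± 0.80 (SE) on the log2 scale.

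Cdh16, the 1 member that encodes a membrane protein, lies on chromosome 8 (104601911 to 104624396, minus strand). It had 533, 86 and 381 counts in tumors 1, 4 and 5 (sgScramble) and 8, 21, 3 and 39 counts in tumors 15, 16, 18 and 2 (icOVA). Every icOVA tumor was below every control tumor, and sgScramble tumor 4, at 2.61 CPM, lay between the other controls (12.2 and 15.3 CPM) and the icOVA tumors (0.0863 to 1.21 CPM). Mean Cdh16 was 10.0 ± 6.63 CPM (SD, n = 3) in sgScramble tumors and 0.529 ± 0.505 CPM (SD, n = 4) in icOVA tumors. The log2 fold change of -4.26 (SE 0.84) was close in size to that of Alb.

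**Figure D1:**
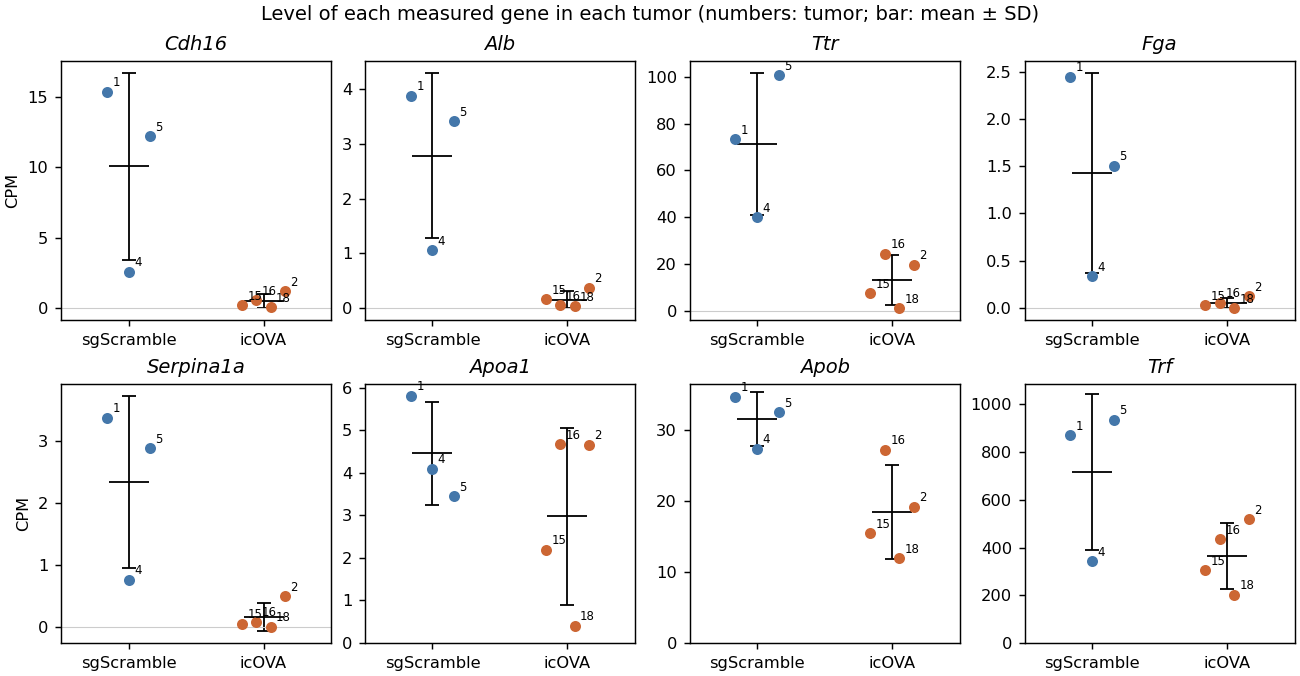
Level in CPM (vertical axis, linear, a scale for each gene) of the 8 measured genes in the 3 sgScramble tumors (blue) and the 4 icOVA tumors (orange), with each tumor's number, and the mean ± SD of each group as a bar. For Cdh16, Alb, Ttr, Fga, Serpina1a and Apob all orange points lie below all blue points, whereas the groups overlap for Apoa1 and Trf.

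The genes of the lipoprotein proteins differed less between the groups. Apob encodes apolipoprotein B, the core protein of chylomicrons and very-low-density lipoprotein. It had 34.7, 27.3 and 32.4 CPM in tumors 1, 4 and 5 (sgScramble) and 15.4, 27.2, 11.9 and 19.2 CPM in tumors 15, 16, 18 and 2 (icOVA). The Apob groups did not overlap, but icOVA tumor 16 was close to sgScramble tumor 4, and the log2 fold change was -0.77 (SE 0.26). Apoa1, on chromosome 9 (46228580 to 46230466), encodes the main protein of high-density lipoprotein, and had 202, 135 and 108 counts against 81, 163, 14 and 150. Apoa1 overlapped, as icOVA tumors 16 and 2 exceeded tumors 4 and 5 of the control, and the log2 fold change of -0.58 was smaller than its SE of 0.66.

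Trf encodes transferrin, the iron carrier of plasma, lies on chromosome 9 (103204001 to 103230444) and was the most abundant of the group also per kilobase of exon. It had 872, 343 and 937 CPM in tumors 1, 4 and 5 (sgScramble) and 304, 434, 203 and 519 CPM in tumors 15, 16, 18 and 2 (icOVA). The overlap of Trf came from sgScramble tumor 4, which was below icOVA tumors 16 and 2. Its log2 fold change was -0.97 (SE 0.40). An exon of Trf overlaps the gene model Gm20425 on the same strand, so that reads may be shared with it.

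Levels of different genes were compared per kilobase of exon (RPKM, from CPM and the annotated exon length). In sgScramble tumors the order of mean RPKM was Trf (216), Ttr (60.2), Apoa1 (3.61), Cdh16 (2.65), Apob (2.26), Serpina1a (1.27), Alb (1.19) and Fga (0.474). The ranges of Trf, Ttr and Apoa1 over the 3 tumors did not overlap, whereas Apoa1 overlapped Cdh16, Cdh16 overlapped Apob, Serpina1a overlapped Alb and Alb overlapped Fga. Apob did not overlap Serpina1a. Albumin was thus a minor transcript among the genes for plasma proteins of these tumors, although it is among the most abundant in liver. In icOVA tumors the order of mean RPKM was Trf (110), Ttr (11.04), Apoa1 (2.41), Apob (1.32), Cdh16 (0.140), Serpina1a (0.0870), Alb (0.0663) and Fga (0.0173). Apob here stood above Cdh16, and their icOVA ranges did not overlap, and neither did those of Trf and Ttr. All other neighbours in this order overlapped.

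Across the 8 genes the median log2 fold change was -3.17, and over all 17489 genes tested it was -0.0048. Adjusted p was under 0.05 in 3 of the 8 (Cdh16, Alb and Fga) by the quasi-likelihood test of edgeR with p-values adjusted by Benjamini and Hochberg's method, and 2.54% of all genes tested were lower by this rule. In 6 of the 8 every icOVA tumor was below every sgScramble tumor, as in 13.3% of all genes tested. As the genes were selected on this comparison, nothing is read from either count. The 3 became 0 without sgScramble tumor 1 or 5 or icOVA tumor 15 or 2. Over all genes, 0 passed without sgScramble tumor 1 or 5 or icOVA tumor 15, and 6 were higher and 2 lower without icOVA tumor 2. The 3 became 4 without sgScramble tumor 4 (681 of all genes lower) or icOVA tumor 16 (716 lower). All 8 log2 fold changes stayed below 0 without any 1 tumor. Without tumor 18, Cdh16, Alb and Fga kept an adjusted p under 0.05, and the median was -2.77. With at least 10 counts required in every tumor, Ttr, Apoa1, Apob and Trf alone were left, with a median of -0.87. By edgeR 0 of them passed the threshold, while 446 of all 15693 genes left were lower by it. An unadjusted p under 0.05 was found for 3 of the members left, as for 4440 of those 15693 genes.

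**Figure D2:**
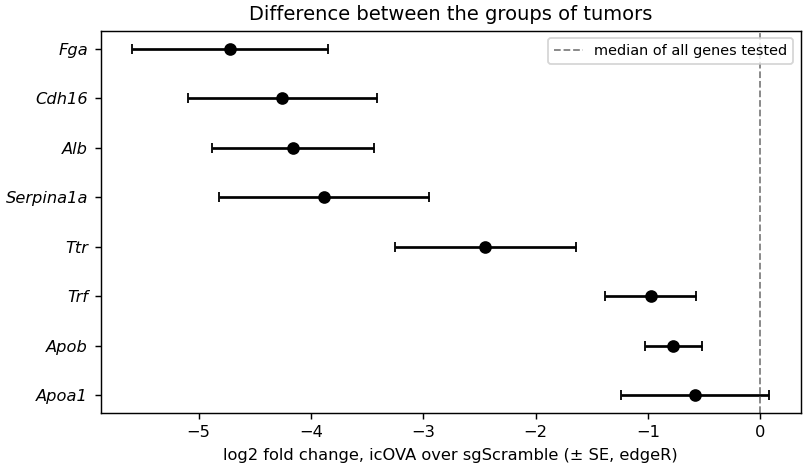
Log2 fold change of icOVA over sgScramble tumors (horizontal axis) for each of the 8 measured genes, with the SE of the edgeR fit as bars and the median of all genes tested as a dashed line. Fga, Cdh16, Alb and Serpina1a lie between -4.72 and -3.89, Ttr at -2.45, and Trf, Apob and Apoa1 between -0.97 and -0.58.

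Within each group the order of the tumors was alike for most of the 8 genes. The genes were chosen with earlier results of these data known, so this order is given as a description only. Tumor 4 was the lowest of the sgScramble tumors for 7 of the 8 genes, the exception being Apoa1, which was lowest in tumor 5. Tumor 18 was the lowest icOVA tumor for 8 of the 8, and tumor 15 came next to it for 7 of the 8. The share of all genes tested with such an order was not counted, so the order is not shown to be particular to these genes. Tumor 18 also had the lowest sum of the epithelial genes, at 3190 CPM. Outside the list, Btg1 and Ccdc130 had the same order as Cdh16 within each group. Cdh16, Fga and Serpina1a had the same order over all 7 tumors (1, 5, 4, 2, 16, 15 and 18 from highest to lowest), and in Alb tumors 16 and 15 changed places, on 2 and 6 counts. In tumors 2, 16, 15 and 18 the order rests on 4, 2, 1 and 0 counts of Fga and 16, 3, 2 and 0 of Serpina1a. Counting error alone could change an order on so few counts. The genes were chosen on the difference between the groups, so the place of sgScramble above icOVA tumors adds nothing. In sgScramble tumors the coefficient of variation ran from 12.0% for Apob to 74.1% for Fga, and in icOVA tumors from 35.6% for Apob to 143% for Serpina1a.

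Genes of fibroblasts and leukocytes moved with this order or with the group, and their part in the result was not tested. Col1a1 had 2181, 5359 and 2025 CPM in tumors 1, 4 and 5 (sgScramble) and 7798, 1865, 11678 and 2798 CPM in tumors 15, 16, 18 and 2 (icOVA). The 3 with the highest Col1a1 were thus tumors 4, 15 and 18, which were low in most of the 8 genes within their own group. Among all 7 tumors, sgScramble tumor 4 was above every icOVA tumor for Cdh16, Alb, Ttr, Fga, Serpina1a and Apob. The icOVA tumor 16 had less Col1a1 than any sgScramble tumor, and the 10 genes of stroma and leukocytes summed to 4236 CPM there, the lowest of the 7, against 4430 to 10902 CPM in sgScramble tumors and up to 23512 CPM in the other icOVA tumors. That sum is mostly collagen. The fibroblast genes Dcn (149 CPM), Pdgfra (73.2 CPM) and Pdgfrb (126 CPM) in tumor 16 were above sgScramble tumors 1 and 5 and below sgScramble tumor 4. Tumor 16 also had 5557 CPM of the 12 epithelial genes, the highest of the 7, with 2 counts of Alb, 2 of Fga and 21 of Cdh16. For Ttr (24.3 CPM), Apoa1 (4.67 CPM) and Apob (27.2 CPM), however, it was the highest icOVA tumor. Per 1000 CPM of the epithelial genes, Cdh16 was 0.520 to 2.85 CPM in sgScramble tumors and 0.0270 to 0.234 CPM in icOVA tumors. On this scale every icOVA tumor was below every sgScramble tumor for Cdh16, Alb, Ttr, Fga, Serpina1a and Apob, as before, and the groups again overlapped for Apoa1 and Trf. Scaled so, tumor 18 was the lowest icOVA tumor for 6 of the 8 genes, and tumor 15 was for Apob (2.84, against 3.72 in tumor 18) and Trf (55.9 against 63.6). Ptprc, the leukocyte gene for CD45, was 116 to 175 CPM in sgScramble tumors and 258 to 363 CPM in icOVA tumors.

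**Figure D3:**
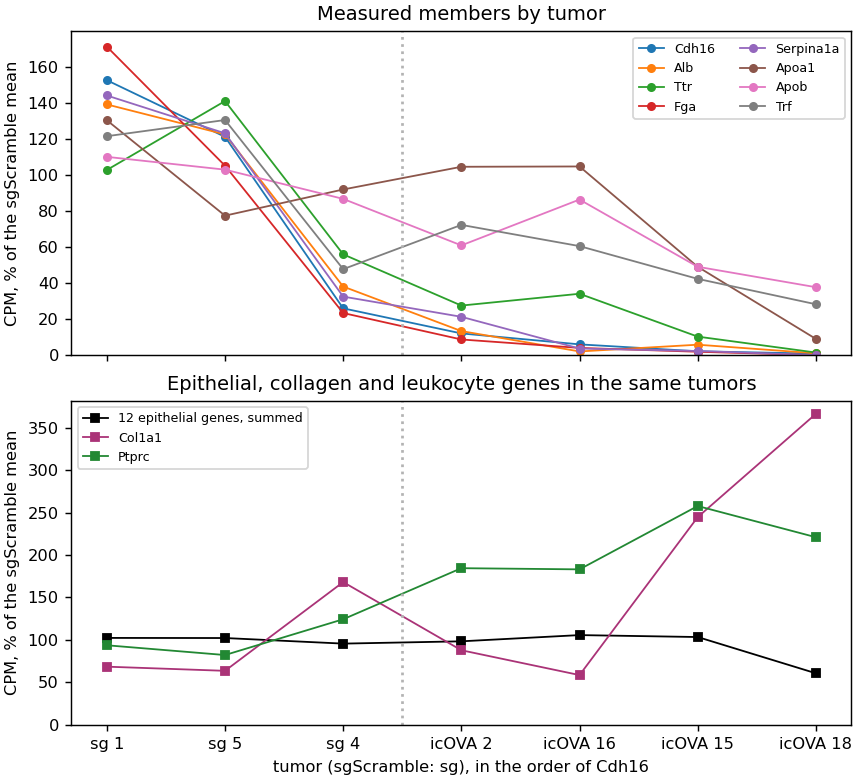
CPM as a percentage of the sgScramble mean (vertical axes, linear, from 0) in each of the 7 tumors (horizontal axis, sgScramble left of the dotted line) for the 8 measured genes (upper part) and for 12 epithelial genes summed, Col1a1 and Ptprc (lower part), with lines joining the values of 1 gene. Within their own groups tumors 4, 15 and 18 are low in most of the 8 genes, and they have the highest Col1a1. Tumor 16, with low Col1a1, is low in Cdh16, Alb and Fga but the highest icOVA tumor for Ttr, Apoa1 and Apob.

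Over the deviations of log2 CPM from the group means in the 7 tumors, the genes most like Cdh16 were Tbl1xr1 (Pearson's r = 0.994, Spearman's rho = 0.964), Gm3650 (0.993 and 1), Ccdc130 (0.991 and 1), Btg1 (0.991 and 1) and Pcid2 (0.991 and 0.893). Those most like the mean of the other 7 measured genes were Rpl30-ps9 (0.997 and 1), March9 (0.996 and 0.964), Sde2 (0.995 and 0.964), Kcnq1ot1 (0.994 and 0.893) and B4galt3 (0.994 and 0.893). They are the highest of all other genes tested, over 7 points that share their libraries, and are given as a description. Their log2 fold changes between the groups ran from -0.61 to 0.25, and none passed the threshold. They also varied over a narrow range, as for Tbl1xr1, which had 2801 to 3905 counts in the 7 tumors.

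Related genes were then counted in 11 lists that hold 208 other genes, of which 156 had a row and 123 were tested. By the quasi-likelihood test of edgeR with p-values adjusted by Benjamini and Hochberg's method over all genes, 8 of the 123 were lower (6.5%, against 2.54% of all genes) and 3 were higher (against 3.36%), with a median log2 fold change of -0.13. Every icOVA tumor was below every sgScramble tumor in 25 of the 123 (20.3%, against 13.3% of all genes). The lists were chosen with earlier results of these data known, so nothing is read from these shares. Without sgScramble tumor 1 or 5 or icOVA tumor 15 or 2 none of these genes passed the threshold in either direction. Over all genes these fits called 0, apart from 6 higher and 2 lower without icOVA tumor 2. Without sgScramble tumor 4 or icOVA tumor 16 or 18 there were 11 to 12 lower and 4 to 8 higher in the lists. Over all genes those fits called 492 to 716 lower and 615 to 1014 higher. With libraries scaled to the epithelial genes, Ambp, Crp, Itih1, Itih4 and Saa3 passed the threshold, and Cdh3, F10, Ptprc, Serpina1c and Ttc36 missed it with adjusted p from 0.0514 to 0.0602 (edgeR). Saa3 missed it with limma-voom (adjusted p = 0.0538) and Serpina1c without the filter on low counts (adjusted p = 0.0530).

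Of the genes of coagulation and protease inhibitors, 22 of 28 had a row and 15 were tested, with a median log2 fold change of -0.77. Serpina1c, Itih1 and Itih4 fell and F10 rose. Itih1, a heavy chain of inter-alpha-trypsin inhibitor, had 46, 11 and 24 counts in tumors 1, 4 and 5 (sgScramble) and 1, 3, 0 and 2 in tumors 15, 16, 18 and 2 (icOVA), a log2 fold change of -4.11 ± 0.72 (SE), at an edgeR adjusted p of 0.0284. Itih4, of the same protein family, had 393, 224 and 411 counts against 21, 43, 7 and 92 (log2 fold change -3.11 ± 0.71 SE, edgeR adjusted p = 0.0458). Tumor 18 was again the lowest and tumor 2 the highest icOVA tumor for Itih4. Serpina1c fell by 4.74 on the log2 scale (SE 1.09, adjusted p = 0.0469 from edgeR), with the limit on near-identical copies given for Serpina1a. F10, coagulation factor X, was the opposite case, at 209.9% of the control mean and a log2 fold change of 1.07 (adjusted p = 0.0230 from edgeR). F5, coagulation factor V and among the 3 most abundant of the list, had a log2 fold change of -1.78 ± 0.54 (SE), at an edgeR adjusted p of 0.0885, and Itih2 one of -0.58 (adjusted p = 0.319).

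Of the plasma carriers and acute phase genes, 16 of 24 had a row and 14 were tested, with a median log2 fold change of -1.12. Ambp and Crp fell and Saa3 rose. Crp, which encodes C-reactive protein, had 108, 34 and 72 counts in tumors 1, 4 and 5 (sgScramble) and 0, 3, 2 and 8 in tumors 15, 16, 18 and 2 (icOVA), a log2 fold change of -4.45 ± 0.74 (SE), at an edgeR adjusted p of 0.0271. Ambp, the precursor of alpha-1-microglobulin and bikunin, had 72, 106 and 135 counts against 7, 27, 4 and 20 (log2 fold change -2.91 ± 0.59 SE, edgeR adjusted p = 0.0360). In Ambp, unlike 7 of the 8 genes, sgScramble tumor 4 was not the lowest control. Saa3, a serum amyloid A made mainly outside the liver, had a log2 fold change of 1.13 ± 0.26 (SE), at an edgeR adjusted p of 0.0466. Cp, ceruloplasmin, and Rbp4, the carrier of retinol that binds transthyretin, had log2 fold changes of -1.38 (adjusted p = 0.0808) and -1.16 (adjusted p = 0.111).

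Of 12 apolipoprotein and lipoprotein assembly genes other than Apoa1 and Apob, 9 had a row and 6 were tested, with a median log2 fold change of -0.19. By edgeR 0 of the 6 passed the threshold, with 2 at an unadjusted p under 0.05, while DESeq2 called 1 lower and 1 higher. Of all 17489 genes, 4763 had an unadjusted edgeR p under 0.05, and DESeq2 called 1278 lower and 1558 higher. Apoe had a log2 fold change of 0.43 (adjusted p = 0.425), Apoc2 0.64 (adjusted p = 0.0757) and Mttp, the transfer protein that loads lipid onto apolipoprotein B, -0.69 (adjusted p = 0.0730).

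Of 25 enzymes and receptors of hepatocytes, 10 had no row and 6 had too few counts for a test. The 9 tested had a median log2 fold change of 0.57. Cps1, the urea cycle enzyme that marks hepatocytes, had 2 to 10 counts, and Asgr1, the hepatocyte receptor for asialoglycoproteins, had 1 to 4 counts, and both were named after their values were seen. Ttc36, a protein abundant in liver and kidney, was the 1 gene of this list that fell, with 74, 58 and 73 counts in tumors 1, 4 and 5 (sgScramble) and 22, 25, 9 and 24 counts in tumors 15, 16, 18 and 2 (icOVA), a difference of -1.84 ± 0.34 (SE) on the log2 scale with an edgeR adjusted p of 0.0315. The 3 most abundant were Ass1, Arg1 and Cyp27a1, with log2 fold changes of 0.57, 0.46 and 0.74 (adjusted p = 0.101, 0.135 and 0.171).

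Of 20 transcription factors of the liver, 17 were tested, with a median log2 fold change of -0.49. Hnf4a had 163 ± 17.1 CPM (SD, n = 3) in sgScramble tumors and 114 ± 27.7 CPM (SD, n = 4) in icOVA tumors, without overlap (log2 fold change -0.51, adjusted p = 0.140), and Onecut2 had a log2 fold change of -0.82 (adjusted p = 0.176).

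For Cdh16, genes of the kidney tubule and other cadherins were counted. By edgeR, DESeq2 and limma-voom 0 of 10 tested kidney genes passed the threshold (median log2 fold change 0.31). An unadjusted edgeR p under 0.05 was found for 1 of the 10, against 4763 of all 17489 genes. Umod, the defining gene of the thick ascending limb, was among 7 of 18 without a row. Aqp1, Lrp2 and Cubn, the most abundant of them, had log2 fold changes of -0.35, 0.31 and -0.42. Of 15 cadherins tested, with a median log2 fold change of -0.18, Cdh3 fell. Cdh3, the P-cadherin of epithelia, had 1104, 515 and 1117 counts in tumors 1, 4 and 5 (sgScramble) and 170, 384, 237 and 298 counts in tumors 15, 16, 18 and 2 (icOVA), a difference of -1.81 ± 0.36 (SE) on the log2 scale with an edgeR adjusted p of 0.0349. Its order in icOVA tumors differed from that of Cdh16, with tumor 15 the lowest. Cdh1, E-cadherin, had a log2 fold change of -0.54 (adjusted p = 0.254), Cdh11 of 0.30 and Cdh17 of 0.42 (adjusted p = 0.185).

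Lists for other tissues gave the context. Of 15 tested genes of foregut and intestine (median log2 fold change 0.44) 0 passed the threshold by edgeR, with 5 at an unadjusted p under 0.05, and 2 were higher by DESeq2. Over all 17489 genes, 4763 had an unadjusted edgeR p under 0.05 and 1558 were higher by DESeq2. Genes of the exocrine pancreas and islets were scarce, as 11 of 16 had no row and the list summed to 4.98 to 13.2 CPM per tumor. Their 2 tested genes and the 11 tested epithelial genes (median log2 fold change 0.05) gave 0 calls by edgeR, DESeq2 or limma-voom and 0 with an unadjusted p under 0.05. Krt8 had a log2 fold change of 0.10 and Krt18 of -0.11, which turned to 0.0325 with epithelial scaling. Of 10 genes of stroma and leukocytes Ptprc rose, with a log2 fold change of 1.08 ± 0.18 (SE), at an edgeR adjusted p of 0.0271, and Col1a1 and Dcn had values of 0.92 (adjusted p = 0.406) and 1.31 (adjusted p = 0.205).

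**Figure D4:**
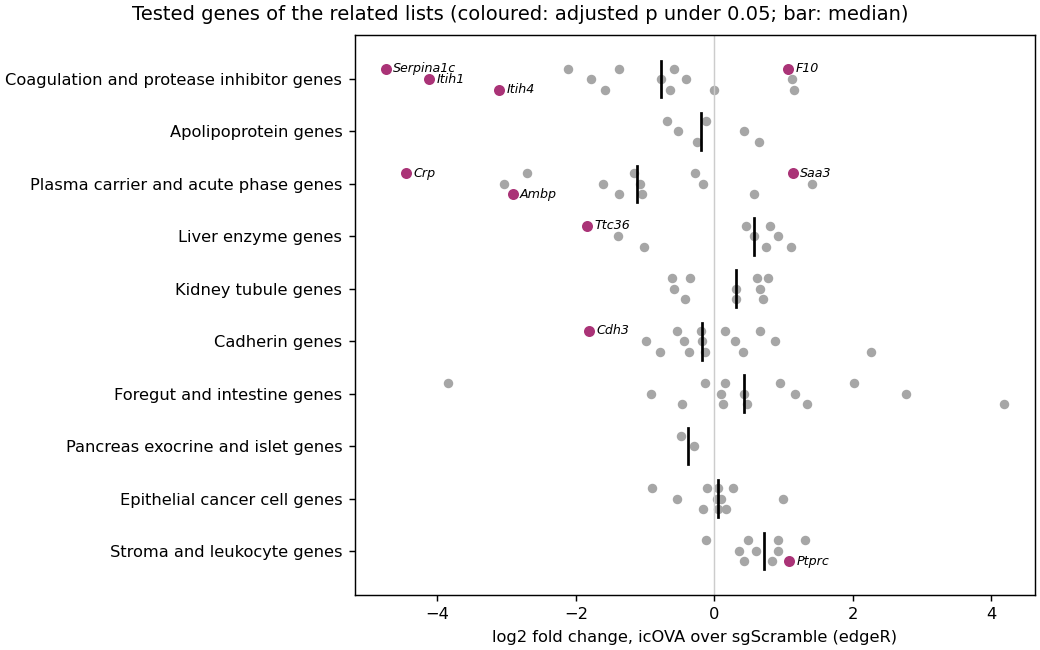
Log2 fold change of icOVA over sgScramble tumors (horizontal axis) for each tested gene of the related lists other than the transcription factors (rows), as grey points, with genes at an adjusted p under 0.05 coloured and named and the list's median as a bar. The 3 lowest coloured genes are Serpina1c at -4.74, Crp at -4.45 and Itih1 at -4.11, and the 3 coloured genes to the right of 0 are F10, Saa3 and Ptprc.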

How the data were processed

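RNA of 7 s/c tumors was sequenced. The table deposited by the authors has 22629 rows and gives for each gene the count of reads, a whole number that was not normalized. The labels give the build as mm10 and poly(A) RNA, whereas the paper's methods name a kit for total RNA. The aligner, the counting tool and its strand setting are not given in the sources used here. Symbols were found for 22414 identifiers in the GENCODE M21 table. Total counts ran from 30904855 to 37510591, and limits for 0 counts cover counting error only.

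The groups were compared in edgeR 4.0.16 (R 4.3.3) with filterByExpr (minimum count 10, minimum total 15), TMM scaling, the quasi-likelihood test on all 7 tumors without covariates, and Benjamini-Hochberg adjustment over 17489 genes, with a threshold of 0.05. Log2 CPM has a prior count of 2. On simulated counts of this comparison for 17226 genes, 70 of 88 genes changed by 2 on the log2 scale were called, and 101 of 112 changed by 3. The changed genes were picked at random and each gene was drawn independently. These shares may therefore not hold for genes with few counts, such as Alb, Fga and Serpina1a.

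The 10 genes, the related lists and the motifs were chosen with earlier results of these data known. Named genes are all members, each list's genes past the threshold and its 3 most abundant genes, and the 5 genes most like Cdh16 and the 5 most like the mean of the other members. Alternatives were DESeq2 1.42.0, limma-voom (limma 3.58.1), other scalings including one to the 12 epithelial genes, other filters, robust dispersion, prior counts of 0.5 and 5 and leaving out each tumor. The values of some genes and a motif are not reported here.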

Additional observations from a re-analysis of the deposited data

Results flagged for a closer look

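Serpina1c in icOVA tumor 2, at -1.85 log2 CPM on 7 counts, stood apart from the other 3 icOVA tumors, which all had 0 counts and -4.09 log2 CPM. It was 1 of 48 genes examined for a tumor far from the rest of its group of 4, where chance would give about 2.4. That number does not cover tied values. With 0 counts in the other 3 tumors, any count in tumor 2 would have been flagged.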

How the results depend on the processing

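The log2 fold changes of the 8 members stayed below 0 in each alternative fit in which the gene was tested, as did their differences of mean log2 CPM with prior counts of 0.5 and 5. Members past the threshold numbered 3, but 5 with DESeq2 (Cdh16, Alb, Fga, Serpina1a and Apob), 1 with limma-voom (Alb), 0 with at least 10 counts in every tumor, where 4 members were left with a median of -0.87, and 0 to 4 with 1 tumor left out. Over all genes the main test called 588 higher and 444 lower, DESeq2 1558 and 1278, and limma-voom 518 and 423. With at least 10 counts in every tumor, edgeR called 658 higher and 446 lower of 15693 genes. It called 58 and 46 with libraries scaled to the epithelial genes, which moved the median of all genes to 0.19. Leaving out 1 tumor gave 0 to 1014 higher and 0 to 716 lower. In the related lists, 8 genes were lower and 3 higher, against 17 and 11 with DESeq2, 4 and 1 with epithelial scaling, 2 lower with at least 10 counts in every tumor, and 0 to 12 lower and 0 to 8 higher with 1 tumor left out. Krt18 turned to 0.0325 with epithelial scaling. Without 1 tumor, Lgals4 ran from -0.16 to 0.29, Lrp2 from -0.0101 to 0.56, Cdh11 from -0.0075 to 0.71, Vsig1 from -0.27 to 0.0301 and Krt18 from -0.18 to 0.0049. No cause was tested. No tumor number occurs in both groups, so no paired analysis was possible. With 0 to 16 counts of Alb, Fga and Serpina1a in icOVA tumors, their folds rest on few reads.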

Other observations

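Ahsg, the plasma protein fetuin-A, named after its values were seen, had 207, 47 and 142 counts in tumors 1, 4 and 5 against 1, 9, 0 and 54 in tumors 15, 16, 18 and 2. The groups overlapped through tumor 2, and the log2 fold change of -3.04 had an adjusted p of 0.145 in the edgeR fit. Muc6, a mucin of gastric glands chosen in the same way, had 4360, 3274 and 1036 counts against 531, 12, 0 and 300, without overlap (log2 fold change -3.84, adjusted p = 0.0976 from edgeR). Its order among sgScramble tumors differed from that of Alb, as tumor 4 was above tumor 5.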
